A study of Arabidopsis thaliana with 16 samples.

Results

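The chloroplast-encoded genes of Arabidopsis thaliana were followed through a cold experiment on whole seedlings. The members were all features whose identifier begins with ATCG, the TAIR prefix for the chloroplast genome, and there were 133 of them among 34262 features in the count files. Seedlings of ecotype Col-0 were 20 days old and had grown on agar plates at 22 °C with 12 h of light per day. The cold groups were then held at 4 °C for 24 h and the control groups were left untreated; the labels name no transgene or mutation. Counts came from 3 cold and 3 control mRNA libraries, labelled as polyA RNA, and from 2 cold and 2 control polysomal libraries, labelled as total RNA. Polysomal RNA is RNA recovered with groups of ribosomes. Nothing in the labels says that replicates were separate cultures, so p-values measure only the spread between these samples, which may be technical.

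The chloroplast genome is a small circular chromosome, held in many copies per cell, that descends from a cyanobacterium. It codes for core subunits of both photosystems, the cytochrome b6f complex, ATP synthase, the NDH complex and Rubisco, and for part of the machinery that expresses them, namely a bacterial-type RNA polymerase, ribosomal proteins, transfer RNAs and ribosomal RNAs. The nucleus supplies the other subunits. Many chloroplast genes are transcribed together in long units and then cut apart, and short poly(A) tails in this organelle mark RNA for decay, unlike those of nuclear mRNA.

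The RefSeq annotation of TAIR10.1 lists 131 chloroplast genes on 154478 bases, of which 87 code for proteins, 37 for transfer RNAs and 7 for ribosomal RNAs. It uses other locus tags than the count files, and 0 of the 133 identifiers matched one. RefSeq notes on nuclear genes name 6 members. ATCG00670 is the plastid-encoded ClpP, the proteolytic subunit of the Clp protease. ATCG00660, ATCG00750 and ATCG01310 encode the ribosomal proteins L20, S11 and L2. ATCG00530 is described there as a CemA-like protein related to proton extrusion, and CemA is a protein of the inner envelope. ATCG00430 appears as photosystem II reaction center protein G, an older name for a product that is now counted as a subunit of the NDH complex. The other members are given by identifier alone, and identifier numbers are used only to say which members stand next to each other in number.

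Part of the genome limits what unique counts can show, because 26264 bases occur in 2 copies as an inverted repeat that holds 33 of the annotated genes. The gene of ribosomal protein L2 lies there, and both of its copies, each 1507 bases long, are identical letter for letter. The first 60 bases of each, read from RefSeq TAIR10.1 on the strand of the gene, show why no read can tell them apart. The capitals mark the first codon. Copy 1 lies on the minus strand at chloroplast 85784 to 85843 and copy 2 on the plus strand at 152806 to 152865.
L2 gene, copy 1: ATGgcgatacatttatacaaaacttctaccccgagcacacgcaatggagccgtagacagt
L2 gene, copy 2: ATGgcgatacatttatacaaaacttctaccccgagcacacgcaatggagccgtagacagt
The deposited counts kept reads with more than 1 alignment apart. ATCG01310, the L2 member named in the notes, had 0, 1 and 2 reads in the cold mRNA libraries, 1, 4 and 4 in the control mRNA libraries, 1 and 1 in the cold polysomal libraries and 2 and 1 in the control ones. These counts say nothing about how much of this mRNA was present. Among the 133 members, 15 had no read in any of the 10 libraries and another 7 had fewer than 10 reads in all libraries together.

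Markers of shoot and of root were read in these libraries of whole seedlings. RBCS1A, a small subunit of Rubisco, stood at a normalised read count of 10300 to 26300 CPM (gene counts scaled to the library). The other shoot markers, PSAD1 and PSBO1, stood at 663 to 2550 and 1810 to 6520 CPM. The root regulators SHR and SCR stood at 13.5 to 19.7 and 33.0 to 45.7 CPM. The other root markers varied widely between libraries, with PYK10 at 293 to 1680 CPM, IRT1 at 0 to 160, TIP2;3 at 0.077 to 13.4 and COBL9 at 0.244 to 8.53. Gene counts per library were 3282574 to 10965304 for mRNA and 12984431 to 22200225 for polysomal RNA. Cold mRNA replicate 3 stood apart. Only 6.60% of its tallied reads were assigned to genes, whereas 25.7% to 31.2% were in the remaining mRNA libraries. Reads with no unique alignment made up 82.2% of its tally and 61.9% to 66.3% of theirs. Results that rest on this library are given with and without it.

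Chloroplast reads took 5.72%, 6.22% and 6.14% of gene counts in the control mRNA libraries. They took 4.70%, 4.61% and 14.1% in the cold mRNA libraries. Cold replicates 1 and 2 therefore lay below every control and replicate 3 lay above every other library. The means were 7.81% ± 5.46 (SD, n = 3) in cold and 6.03% ± 0.270 (SD, n = 3) in control, a difference of 1.78 percentage points with a two-sided exact permutation p of 1.00, where 3 against 3 libraries cannot go below 0.10. Without cold replicate 3 the mean of the cold libraries was 4.66%, which is 1.37 percentage points below control, with an exact permutation p of 0.10, the smallest that 2 against 3 libraries allow. The direction of the cold difference thus rested on 1 library. Against all tallied reads instead of gene counts, all 3 cold libraries were lower, at 1.21%, 1.44% and 0.932%, than the 3 control libraries, at 1.48%, 1.60% and 1.66%. Mitochondrial reads stood out in the same library, with 8.01% of gene counts in cold replicate 3 and 1.67% to 2.48% in the other 5 mRNA libraries. Exact 95% binomial intervals on the chloroplast shares were narrow, for example 14.07% to 14.15% in cold replicate 3, and cover counting error only. In whole seedlings, fewer chloroplast-rich cells and fewer chloroplast transcripts per cell cannot be told apart.

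Polysomal libraries held far fewer of these reads. Chloroplast features took 0.183% and 0.426% of gene counts in the control polysomal libraries and 0.147% and 0.174% in the cold ones, or 22572 to 91763 reads per library. Both cold libraries lay below both controls, and control replicate 2 was the highest of the 4. The difference of -0.144 percentage points had a two-sided exact permutation p of 0.33, the smallest that 2 against 2 libraries allow. Across both conditions the chloroplast share was 30.2-fold lower in polysomal than in mRNA libraries, a difference of -4.91 on the log2 scale, with a two-sided exact permutation p of 0.01, the smallest that exchanging libraries within each condition allows. Every polysomal library lay below every mRNA library. Because the labels give polyA RNA for one kind and total RNA for the other, polysome association and the kind of library cannot be told apart. The kinds also differed in the part of tallied reads assigned to genes, 6.60% to 31.2% in mRNA and 92.8% to 93.8% in polysomal libraries. Whether the labels describe how each kind was prepared was not tested.

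**Figure D1:**
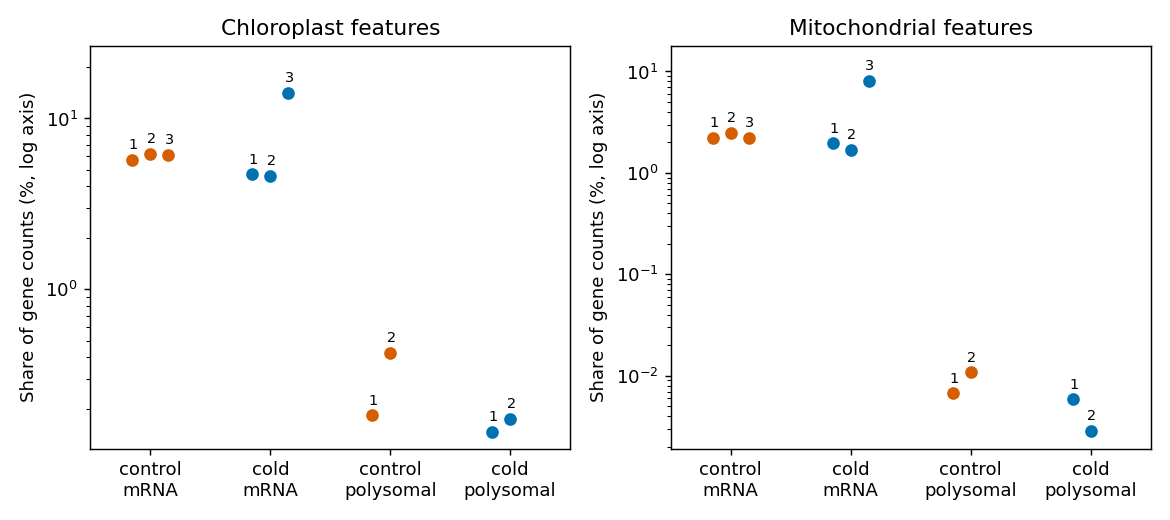
Share of gene counts (%, log axis) taken by chloroplast features (left) and mitochondrial features (right); each point is a library and its number the replicate. Cold mRNA replicate 3 lies above all other libraries in both panels, at 14.1% and 8.01%, and all 4 polysomal libraries lie under 0.43% for the chloroplast.

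Scaled to the whole library (TMM factors over all genes), 93 of the 133 members passed the filter on low counts in mRNA. Of these, 3 were higher in cold and 0 were lower by edgeR's quasi-likelihood test with Benjamini-Hochberg adjustment over all features. That is 3.23% of the members tested, against 25.4% of all features called in the same fit (13.4% higher and 12% lower). At an unadjusted p under 0.05 there were 5 higher and 2 lower, and DESeq2 called 3 higher and 0 lower. No share of all features is given for that cutoff or for DESeq2. The median change of the members was 0.43 on the log2 scale, with 74 above 0, while the median of all features was -0.01. The 3 higher members, ATCG00230, ATCG00240 and ATCG00250, have consecutive identifiers. The call of ATCG00250 (edgeR adjusted p = 0.0396) was lost when any 1 of the 6 libraries was left out, with edgeR adjusted p-values of 0.0556 to 0.101, with library totals (0.0612) and with all 10 libraries in one fit (0.0545). Scaled by library totals with no factors, 2 members were higher and 2 lower, with no share of all features given for that scaling. Without cold replicate 3, 2 of 93 members were higher (ATCG00230 and ATCG00240) and 13 were lower. In that fit 24.6% of all features were called (13.3% higher and 11.2% lower), so the count of lower members was near the background. The members' median turned to -0.28, with 20 above 0 and 73 below. The direction relative to the rest of the library thus rested on cold replicate 3. The members were next compared within the chloroplast total, which removes any shift that all of them share.

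The most abundant member of the chloroplast total, over all 6 mRNA libraries, was ATCG00020. It took 14.5%, 14.5% and 16.1% of chloroplast reads in the control mRNA libraries and 22.4%, 17.5% and 27.5% in the cold ones. All 3 cold libraries lay above all 3 controls. The change was 0.58 on the log2 scale (SE 0.19) with an adjusted p of 0.0555 (edgeR quasi-likelihood), just short of the threshold. It was 0.41 (SE 0.16, edgeR adjusted p = 0.0993) without cold replicate 3 and passed the threshold in 3 settings. These were without cold replicate 2, at 0.73 (edgeR adjusted p = 0.0428), without the filter on low counts, at 0.58 (edgeR adjusted p = 0.0461), and with ATCG00020 itself left out of the total, at 0.73 (edgeR adjusted p = 0.0410). The next most abundant, ATCG00490, took 14.2%, 13.4% and 10.3% in control and 13.6%, 11.7% and 11.2% in cold mRNA. Its groups overlapped, with a log2 change of -0.06 (SE 0.18). The 10 most abundant members of each mRNA library together took 69.5% to 80.4% of its chloroplast reads, the highest share being that of cold replicate 3.

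Within that total, 2 of the 93 members tested were higher in cold mRNA and 3 were lower by edgeR's quasi-likelihood test, 5.38% in all against 25.8% of all features in the same fit (13.6% higher and 12.2% lower). The split was 4 higher and 3 lower with TMM factors over the chloroplast features, and 6 higher and 3 lower when the most abundant member was left out of the total. The members' median change was -0.12 on the log2 scale, with 35 above 0 and 58 below. Without cold replicate 3 the median was 0.01, with 49 above 0 and 44 below, so this lean rested on that library. Non-overlapping groups were found for 7 members with cold higher and 8 with cold lower, or 7.53% and 8.60% of those tested, against 22.0% and 21.7% of all features. Both shares were below the background.

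ATCG00230 rose. It had 17, 13 and 14 reads in the control mRNA libraries and 68, 80 and 53 in the cold ones, so that its share of the chloroplast total was 0.00251% ± 0.000885 (SD, n = 3) in control and 0.0141% ± 0.00264 (SD, n = 3) in cold. Every cold library was above every control, and the log2 change was 2.51 (SE 0.32, edgeR adjusted p = 0.00125). ATCG00230 falls under the minimum of 50 reads per library in the rule for named genes and is named here after its values were seen, as is ATCG00250. The next identifier, ATCG00240, had 83, 92 and 64 reads in control and 327, 324 and 112 in cold mRNA. Its shares were 0.0172%, 0.0135% and 0.00960% in control and 0.0683%, 0.0678% and 0.0242% in cold. The groups did not overlap, although cold replicate 3 lay closer to the controls than to the other cold libraries. The log2 change was 2.00 (SE 0.42, edgeR adjusted p = 0.0133). It missed the threshold without control replicate 2, where the adjusted p was 0.0570 (edgeR) at a log2 change of 2.01. ATCG00250, the next in number, had 24, 33 and 30 control and 46, 50 and 24 cold reads. Its log2 change of 0.82 (SE 0.32) missed the threshold, with an edgeR adjusted p of 0.0903, and passed it without cold replicate 3, at 1.07 (SE 0.26, edgeR adjusted p = 0.0251). All 3 are low in these libraries, and reads of overlapping or antisense features cannot be told apart, since the strand setting of the counts is not given in the sources used here.

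The 3 members that fell were ATCG00290, ATCG00300 and ATCG00650. ATCG00300 took 0.494%, 0.497% and 0.550% of chloroplast reads in control mRNA and 0.274%, 0.303% and 0.213% in cold mRNA. The groups lay well apart, with a log2 change of -0.96 (SE 0.16, edgeR adjusted p = 0.00414). Its neighbour in number, ATCG00290, took 0.305%, 0.278% and 0.239% in control and 0.134%, 0.174% and 0.152% in cold. It fell by 0.84 on the log2 scale (SE 0.16, edgeR adjusted p = 0.00614). ATCG00650 took 0.111%, 0.0720% and 0.101% in control and 0.0598%, 0.0615% and 0.0341% in cold. Its change of -0.87 (SE 0.25, edgeR adjusted p = 0.0362) missed the threshold when any library other than control replicate 2 was left out, with adjusted p-values of 0.0594 to 0.0900 (edgeR).

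**Figure D2:**
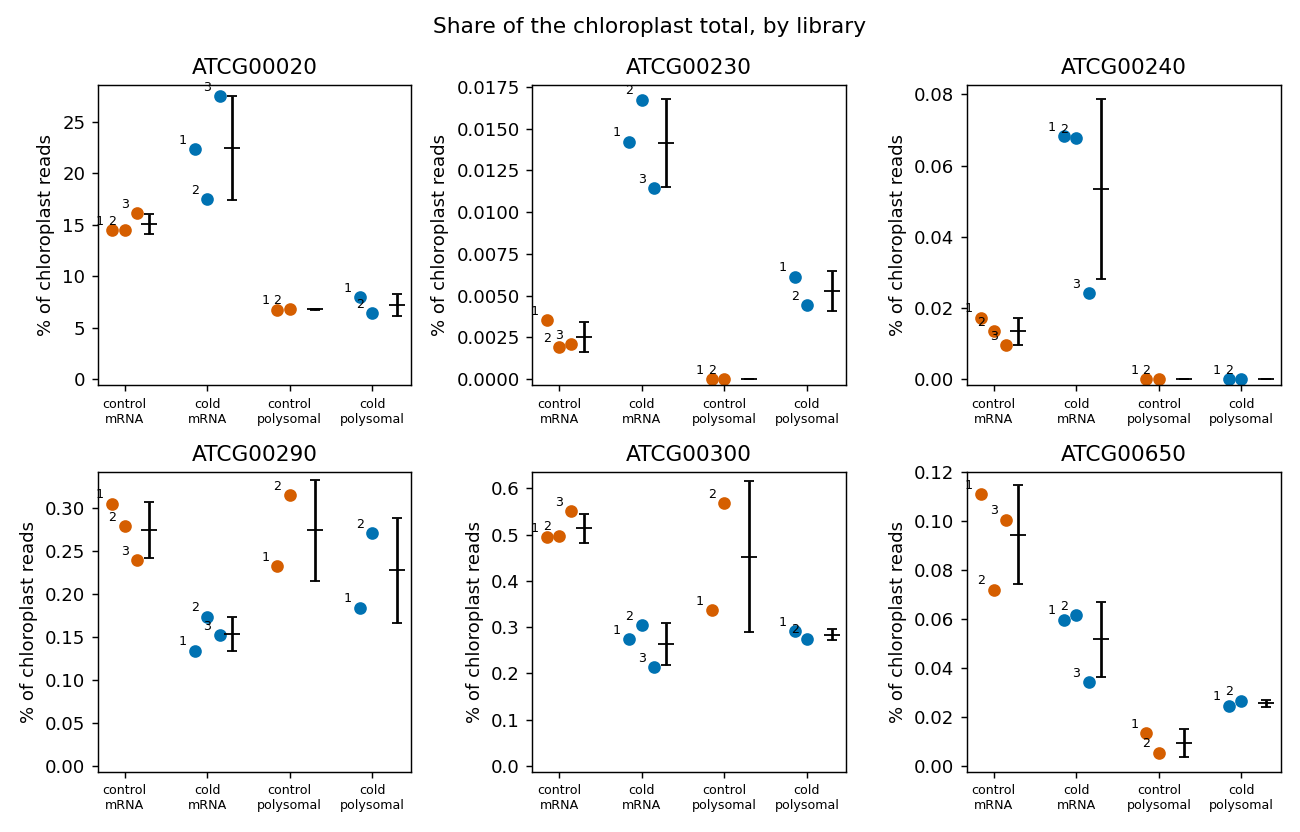
Percent of chloroplast reads for 6 members in each library (points, numbered by replicate), with the mean and SD of each group as a bar beside them. In mRNA, ATCG00230 and ATCG00240 were higher in cold, ATCG00290, ATCG00300 and ATCG00650 were lower, and ATCG00020 was higher in all 3 cold libraries without passing the adjusted threshold.

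Leaving out cold replicate 3 kept the calls of ATCG00230 and ATCG00240 as higher, at 2.64 and 2.35 on the log2 scale, and of ATCG00290 and ATCG00300 as lower, at -0.83 each. ATCG00190, ATCG00250 and ATCG00450, the last named after its values were seen, were then also higher, which makes 5 higher and 2 lower of 93 tested, against 24.7% of all features called. ATCG00650 was not called. That library's composition differed broadly. Among 87 members with a mean of at least 50 reads per mRNA library, 69 (79.3%) lay outside the range of the other 5 mRNA libraries in cold replicate 3, with 15 above it and 54 below it. The corresponding counts for the other 5 libraries were 10 to 36. With all 6 mRNA libraries and within the chloroplast total, members next to each other in number had changes of the same sign in 49 of 79 pairs (62.0%). This is description only, since such pairs can share a transcript. With 35 members above 0 and 58 below, many pairs would share a sign in any order.

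**Figure D3:**
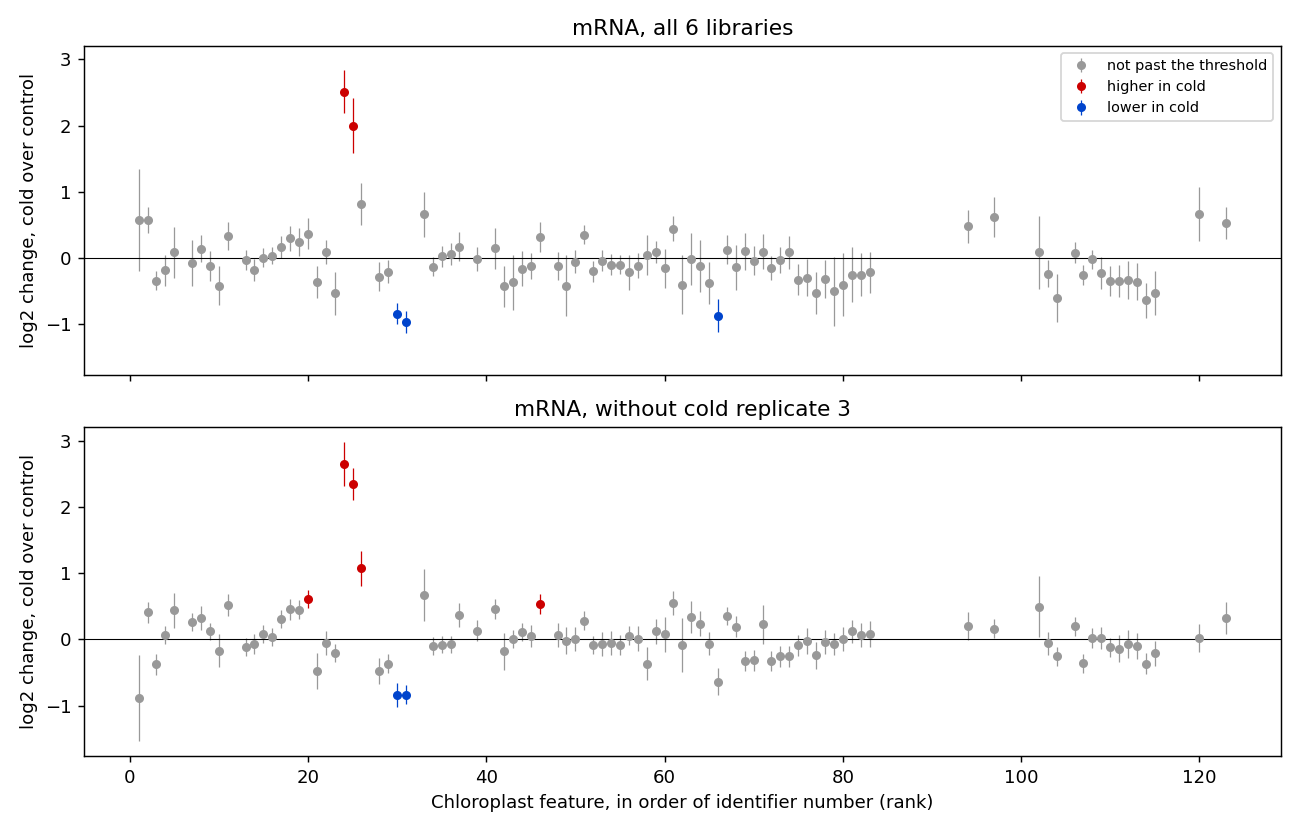
Change in cold mRNA within the chloroplast total (log2, cold over control, bars are SE) for the 93 members tested, in order of identifier number, with all 6 libraries (top) and without cold replicate 3 (bottom). ATCG00230 and ATCG00240 stand at the top and ATCG00290 and ATCG00300 near the bottom of both panels, whereas ATCG00650 is called only with all 6 libraries.

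None of the members that RefSeq notes name passed the test in cold mRNA within the total. The ClpP gene, ATCG00670, took 0.471%, 0.431% and 0.408% of chloroplast reads in control and 0.443%, 0.553% and 0.194% in cold, with a log2 change of -0.14 (SE 0.34). Cold replicate 3 was the lowest of the 6 libraries and cold replicate 2 the highest. For the genes of ribosomal proteins L20 and S11 the changes were 0.13 (SE 0.22) and -0.29 (SE 0.28), for the CemA-like gene -0.10 (SE 0.16) and for ATCG00430, the NDH subunit gene, -0.16 (SE 0.26). Without cold replicate 3 they were 0.19 (SE 0.16) for ClpP, 0.36 (SE 0.14) for L20 and -0.03 (SE 0.19) for S11. For the CemA-like gene and ATCG00430 they were then -0.05 (SE 0.18) and 0.11 (SE 0.13). ClpP and ATCG00430 thus changed sign, and none of these members was called. The gene of ribosomal protein L2 had too few reads to be tested.

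In polysomal RNA 73 members were tested and 0 were called in either direction, scaled to the library or within the chloroplast total, by edgeR's quasi-likelihood test. Of all features, 7.82% were called with library scaling (3.89% higher and 3.92% lower) and 7.91% in the fit within compartment totals (3.92% higher and 3.98% lower). At an unadjusted p under 0.05 there were 0 higher and 14 lower with library scaling, where DESeq2 called 3 lower, and 1 higher and 1 lower within the total. Shares of all features at that cutoff or by DESeq2 are not given here, so these counts cannot be set against a background. With library scaling the median change was -0.83 on the log2 scale and 69 of 73 members were below 0, with a median standard error of 0.47, whereas the median of all features was -0.01. The size of this fall depended on control replicate 2, where chloroplast reads took 0.426% of gene counts. Control replicate 1, at 0.183%, lay close to the cold libraries, at 0.147% and 0.174%. Within the total the median was 0.02, with 38 above and 35 below 0. Groups of 2 did not overlap for 10 members with cold higher (13.7%) and 11 with cold lower (15.1%), against 29.5% and 31.0% of all features. ATCG00020 took 6.75% and 6.78% of chloroplast reads in the control polysomal libraries and 7.98% and 6.42% in the cold ones, so the groups overlapped. ATCG00300 took 0.337% and 0.568% in control and 0.291% and 0.275% in cold, lower in both cold libraries, with a log2 change of -0.68 (SE 0.33) and an edgeR adjusted p of 0.222. ATCG00240 had 0 reads in all 4 polysomal libraries and ATCG00230 had 2 and 1 in cold and 0 and 0 in control, so neither could be tested there. For ATCG00240, a count of 0 allows a share of up to 0.00544% of the 55177 chloroplast reads of the cold polysomal libraries and up to 0.00232% of the 129194 of the control ones.

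The difference between the cold change in polysomal RNA and that in mRNA was fitted over all 10 libraries, within the chloroplast total. None of 94 members was called by edgeR's quasi-likelihood test, where 0.27% of all features were (0.065% higher and 0.205% lower). At an unadjusted p under 0.05 there were 3 higher and 1 lower, no more than this cutoff passes among 94 members without any difference. ATCG00650 was among them: it was lower in cold mRNA and had 8 and 6 reads in cold against 5 and 5 in control polysomal RNA. With so few reads ATCG00650 was not tested in the polysomal fit. Its difference was 2.53 on the log2 scale (SE 0.70) with an edgeR adjusted p of 0.171. The median standard error of this difference over the members was 0.52.

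The 2 kinds of library differed in which chloroplast genes they held. Within the chloroplast total, 17 of 94 members were higher in polysomal than in mRNA libraries and 45 were lower by edgeR's quasi-likelihood test on the average of both conditions, 66.0% in all, against 36.1% of all features (17.6% higher and 18.5% lower). The median was -0.94 on the log2 scale. Every polysomal library lay above every mRNA library for 16 of these 94 members (17.0%) and below for 35 (37.2%), against 7.34% and 8.61% of all features.

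Among the 94 members tested, the highest ratios were those of ATCG01180 and ATCG01210. ATCG01180 took 0.0190% to 0.0605% of chloroplast reads in the 6 mRNA libraries, the highest value being cold replicate 3, and 1.04%, 1.46%, 0.999% and 0.618% in the 2 cold and then the 2 control polysomal libraries. The kinds did not overlap, and the difference was 5.17 on the log2 scale (SE 0.32, edgeR adjusted p = 1.07e-05). ATCG01210 took 0.0249% to 0.0505% in mRNA and 0.552%, 0.572%, 0.537% and 0.311% in polysomal libraries, a difference of 3.86 (SE 0.21, edgeR adjusted p = 2.66e-06). Both carry few unique reads in mRNA, with 91 to 280 reads per library for ATCG01180. Members with too few reads to be tested could lie higher: ATCG01250, named after its values were seen, had 0 to 2 reads in each mRNA library and 15, 3, 13 and 10 in the polysomal ones. Non-unique alignments were 61.9% to 82.2% of tallied reads in mRNA and 4.65% to 5.50% in polysomal libraries, and their part in these differences was not tested. Because the identifiers matched no locus tag, the annotation used here could not show whether ATCG01180, ATCG01210 and ATCG01250 lie in the inverted repeat. Unique counts of members inside it would be limited as those of the L2 gene were.

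Among the abundant members the order changed. ATCG00020 ranked first in mRNA, with a mean share of 18.7%, and took 6.98% in polysomal libraries, a difference of -1.40 on the log2 scale (SE 0.17, edgeR adjusted p = 0.000273). ATCG00490 took 12.4% in mRNA and was first in polysomal libraries, with 18.1%, a difference of 0.54 (SE 0.15, edgeR adjusted p = 0.0171). That call is relative to the total: with ATCG00020 left out of it, the difference was 0.34 (edgeR adjusted p = 0.0975). ATCG00340 and ATCG00350 followed in both kinds, at 8.34% and 7.93% in mRNA and 14.7% and 13.1% in polysomal libraries.

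The lowest ratios among members with reads in polysomal libraries included ATCG00220 and ATCG00400. ATCG00220 took 0.431% to 1.32% of chloroplast reads in mRNA and had 15 and 2 reads in the cold and 15 and 3 in the control polysomal libraries, a difference of -5.58 (SE 0.61, edgeR adjusted p = 0.000267). ATCG00400 took 0.304% to 0.733% in mRNA and had 15, 2, 5 and 8 polysomal reads, a difference of -4.98 (SE 0.41, edgeR adjusted p = 4.77e-05). ATCG00240, with no polysomal read, was at least 9.83-fold lower there than its mean mRNA share of 0.0534% in cold and at least 5.79-fold lower than that of 0.0134% in control, taking 3 reads over the 2 polysomal libraries of each condition as the floor.

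Of the named members, the CemA-like gene was higher in polysomal libraries, with 0.647%, 0.492%, 0.705% and 0.406% of chloroplast reads there and 0.238% to 0.330% in mRNA. The difference was 1.05 on the log2 scale (SE 0.18, edgeR adjusted p = 0.00122) and the kinds did not overlap. ATCG00430, the NDH subunit gene, was lower, with 0.147%, 0.0532%, 0.198% and 0.0697% in polysomal libraries and 0.416% to 0.883% in mRNA, a difference of -2.69 (SE 0.38, edgeR adjusted p = 0.000652). The genes of ClpP, L20 and S11 overlapped between the kinds, with differences of 0.39 (SE 0.41), -0.48 (SE 0.22) and -0.61 (SE 0.29), none of which passed the threshold. ClpP varied widely among polysomal libraries, at 0.779% and 0.860% in replicates 1 and 0.284% and 0.268% in replicates 2 of cold and control. Members next to each other in number differed in the same direction in 57 of 81 pairs (70.4%). With 29 members above 0 and 65 below, many pairs would do so in any order.

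**Figure D4:**
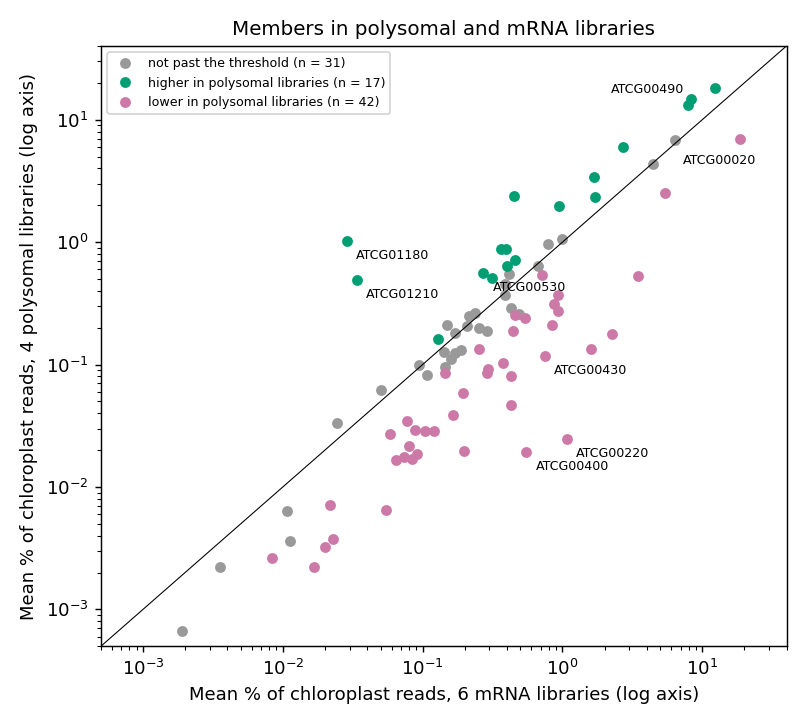
Mean percent of chloroplast reads in the 6 mRNA libraries (x) and the 4 polysomal libraries (y), both on log axes, for 90 of the 94 members tested; the other 4 had no polysomal read. The line marks equal shares. The 17 members called higher in polysomal libraries lie above it, with ATCG01180 and ATCG01210 farthest, and ATCG00220 and ATCG00400 lie far below it.

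The nuclear-encoded subunits of the same complexes gave a reference outside the organelle. Of 34 such genes, 0 were higher and 4 (11.8%) were lower in cold mRNA with library scaling by edgeR's quasi-likelihood test, and 12% of all features were lower in the same fit. These were RBCS2B and RBCS3B, small subunits of Rubisco, at -1.05 (SE 0.22) and -0.79 (SE 0.20) on the log2 scale, PSAK, a photosystem I subunit, at -0.61 (SE 0.19), and NDHM, a subunit of the NDH complex, at -0.55 (SE 0.17). RBCS genes are near-identical copies, so their unique counts are uncertain. The median of the 34 was -0.26 in mRNA and -0.57 in polysomal RNA, where 0 were called by edgeR and 3.92% of all features were lower. Without cold mRNA replicate 3 the count in mRNA was 14 lower (41.2%, against 11.2% of all features) and 0 higher, with a median of -0.46. NDHM was not among them, at -0.45 (SE 0.16, edgeR adjusted p = 0.0750), while RBCS2B, RBCS3B and PSAK were. Chloroplast members had a median of -0.28 in that same fit.

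Lists of m6A peaks were also deposited, with 3 cold and 3 control lists from immunoprecipitation of N6-methyladenosine, a mark of mRNA. Peaks on the chloroplast genome numbered 64, 122 and 91 in cold and 80, 144 and 92 in control, or 0.276% to 0.592% of each list. Of these, 10, 24 and 15 in cold and 17, 28 and 14 in control had a q of at most 0.05 in the authors' values. Of all peaks, 8628 of 23174, 9085 of 26651 and 3578 of 15383 passed that q in cold. In control, 7073 of 23335, 9296 of 27275 and 9457 of 27310 did. In every list a smaller part of the chloroplast peaks than of all peaks passed. The ranges of cold and control lists overlapped.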

How the data were processed

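Read counts per gene were deposited by the authors for 10 libraries, from STAR and HTSeq on TAIR10 (tools named, without versions, in the submitters' processing notes). No source used here states how strand was treated. The −log10 q of each m6A peak is the authors' MACS2 value, deposited per library. The 5 lines that name no gene were left out of library sizes. They held 68.8% to 93.4% of tallied reads in mRNA and 6.21% to 7.19% in polysomal libraries.

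The tests ran in R 4.3.3 on the whole table with edgeR 4.0.16 (filterByExpr, robust quasi-likelihood fit, F test), with Benjamini-Hochberg adjustment over all features and a threshold of 0.05. Library scaling used TMM factors. For the comparison within the chloroplast total, the offset of each ATCG feature was the log of its library's ATCG total, and mitochondrial and nuclear features had offsets of their own. Residual degrees of freedom were 4 (mRNA), 2 (polysomal) and 6 (all libraries). Standard errors are the log2 change divided by the square root of F. Fits were tested on simulated data with a common spread and the same base proportions in every library, changing features drawn from the whole table. That setting is simpler than these libraries and says little about the offset for chloroplast features. DESeq2 1.42.0 and other scalings, filters and left-out libraries were alternatives. Shares were compared by exact permutation tests (two-sided). No replicate pair agreed within sampling noise over features with at least 10 reads in the pair, with a chi-square per degree of freedom of 11.4 or higher.

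Members and lists were chosen with earlier results of these data known. Named are members with at least 2% of chloroplast reads in a kind of library and, per fit, up to 8 rises and 8 falls with a mean of at least 50 reads, shortened here because the identifiers carry no gene names. The planned lists by gene symbol could not be built for the same reason.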

Additional observations from a re-analysis of the deposited data

How the results depend on the processing

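Of 173 recomputed counts and shares, 156 kept their direction and stayed within 1.5 times of the reported value or on the same side of the threshold. The mean mRNA share, 1.78 percentage points higher in cold, reversed to -0.386 against all tallied reads and ranged from -1.37 to 3.38 when 1 library was left out, negative only without cold replicate 3. With library scaling, members lower in mRNA were 2 by library totals and 0 to 13 when leaving out 1 library. In polysomal RNA, members lower with library scaling were 3 with DESeq2, 1 without the filter, 3 with all 10 libraries in one fit and 0 to 1 when leaving out 1 library. Within the chloroplast total, members higher in mRNA were 4 with TMM over chloroplast features, 6 without the most abundant member in the total (an alternative chosen after seeing the data) and 1 to 5 when leaving out 1 library (4 with cold replicate 2 out, 5 with cold replicate 3 out, 1 with control replicate 2 out). In polysomal RNA within the total there were 1 higher and 1 lower with all 10 libraries in one fit. The causes were not tested, and for most of these settings the share of all features called is not given. Of 441 recomputed changes of single members, 23 lost their call, 3 gained one and 0 changed sign. These covered only members called in a main fit, and between kinds of library only the named ones among them. ATCG00020, within the total in mRNA, was the only uncalled member included, so only it could gain a call. The tally does not cover the other uncalled members.

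Same-numbered mRNA libraries did not deviate together (correlations of -0.0240, -0.0144 and 0.216), and with 2 polysomal pairs the correlation (0.452) cannot show pairing. With a replicate block, 6 members were lower in polysomal RNA with library scaling and 1 within the total, and no other count moved by over 1.5 times. The shares outside the inverted repeat and the total without psbA were not run, since identifiers carry no names. Polysomal libraries hold 22572 to 91763 chloroplast reads, which limits low members there.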

Other observations

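Chloroplast and mitochondrial reads did not stand in the same ratio in both kinds of library. There were 1.76 to 2.78 chloroplast reads per mitochondrial read in the 6 mRNA libraries, lowest in cold replicate 3, and 25.1 to 61.0 in the 4 polysomal libraries. Mitochondrial features took 0.00285% to 0.0108% of gene counts in polysomal libraries, or 370 to 2328 reads.

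The composition of the chloroplast total in cold mRNA replicate 3 was less like the other mRNA libraries and more like the polysomal ones. Across the 87 members with a mean of at least 50 reads in mRNA, its log2 shares (percent plus 0.0001) had a Pearson r of 0.814 to 0.828 with the polysomal libraries and of 0.932 to 0.956 with the other mRNA libraries. The other 5 mRNA libraries had 0.748 to 0.803 with the polysomal libraries and 0.980 to 0.995 with each other. These are correlations across genes, which are not independent replicates, and the cause was not tested.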
